A study of Homo sapiens with 2 samples.

Results

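Mesenchymal-marker positive cells were 3024 of 24107 cells that passed the filters in a pair of single-cell RNA libraries of prostate epithelial lines, 1590 of 9967 cells (15.95%) in RWPE1 and 1434 of 14140 (10.1%) in RWPE-ERG-mAKT. They were selected on their own counts of 3 genes: a member held at least 5 unique molecular identifiers (UMIs) of VIM and at least 1 of CDH2 or FN1. Comparison cells held at most 1 VIM UMI and none of CDH2 or FN1, and numbered 5098 in RWPE1 and 5713 in RWPE-ERG-mAKT. All other kept cells lay between these rules. Cells were barcodes with more than 2500 detected genes and under 7.5% of UMIs in mitochondrially encoded genes, so they lie above the upper gene limit of the study's own filter, and no doublet caller was run.

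RWPE1 is an immortalized line of human prostate epithelium. The first library was RWPE1, which the labels give as a vector-only control and the study's text treats as the parental line. The second was RWPE-ERG-mAKT, RWPE1 made by retroviral transduction to carry the ETS transcription factor ERG, driven by the HNRNPA2B1 promoter, and a myristoylated, membrane-anchored AKT1, followed by drug selection. Both lines were grown in keratinocyte serum-free medium, and each was 1 library of 3' transcript ends, so no test between conditions was possible and no p is given. Intervals are 95% intervals for counting error only.

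An epithelial cell that moves toward a mesenchymal state builds intermediate filaments of vimentin (VIM), may exchange E-cadherin (CDH1) for N-cadherin (CDH2), and secretes fibronectin (FN1) and other matrix proteins. Transcription factors of the SNAI, ZEB and TWIST families repress epithelial genes in this transition, and TGF-beta is its best known inducer. Basal prostate epithelial cells in culture also make some VIM, laminins and integrins, so such genes alone do not define the state. In the GENCODE release 29 annotation on GRCh38, VIM (ENSG00000026025) lies at chr10:17228259-17237593, CDH2 (ENSG00000170558) at chr18:27950966-28177446 and FN1 (ENSG00000115414) at chr2:215360440-215436172.

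Median depth was 16972 UMIs per kept RWPE1 cell and 13601 per kept RWPE-ERG-mAKT cell. Members of RWPE1 held a median of 15723 UMIs against 16645 in its comparison cells, and members of RWPE-ERG-mAKT 17699 against 12233. Ratios of members to comparison cells were therefore taken within bins of total UMIs, while levels of whole classes of cells and summed levels of gene lists were pooled over cells, without bins. Median mitochondrial shares were 5.17% in members and 5.62% in comparison cells of RWPE1, and 2.41% and 2.95% in RWPE-ERG-mAKT. The libraries shared 55 barcodes, of which 37 were kept cells of both and 1 was a member in both. Microglia and choroid plexus markers summed to 0.292 CPM (counts per 1000000 UMIs) in RWPE1 members and 0.107 in RWPE-ERG-mAKT members.

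The RWPE1 library held a pair of kinds of cells, and its members came mostly from the smaller one. RPS4Y1, a ribosomal protein gene at chrY:2841486-2932000, had at least 2 UMIs in 1493 of 9967 RWPE1 cells (15.0%), none in 8284 and exactly 1 in 190. Cells with at least 2 UMIs are called RPS4Y1-positive here and cells with none RPS4Y1-negative. This split was made after the data were seen. Of the RWPE1 members, 1200 of 1590 (75.5%, interval 73.3 to 77.6%) were RPS4Y1-positive, against 10 of 5098 comparison cells (0.196%, 0.0941 to 0.360%). In RWPE-ERG-mAKT the gene did not separate the cells: 96.8% of members and 96.3% of comparison cells were positive. RPS4Y1 stood at 295 CPM in RWPE1 members and 1.59 in comparison cells, and at 538 and 612.6 CPM in RWPE-ERG-mAKT.

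VIM followed the same line. After each cell was thinned to 6000 UMIs, RPS4Y1-negative RWPE1 cells held a mean of 0.617 VIM UMIs, and 2.04% of them held 5 or more. RPS4Y1-positive RWPE1 cells held a mean of 8.83, and 75.6% held 5 or more. All cells of RWPE-ERG-mAKT held a mean of 1.68, and 11.8% held 5 or more, a single falling distribution with a long upper end. The variance of these counts was 8.03 times the mean in RWPE1 as a whole, 3.58 times among its RPS4Y1-positive cells, 2.79 times among its RPS4Y1-negative cells and 4.12 times in RWPE-ERG-mAKT, where pure counting noise would give a variance equal to the mean.

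**Figure D1:**
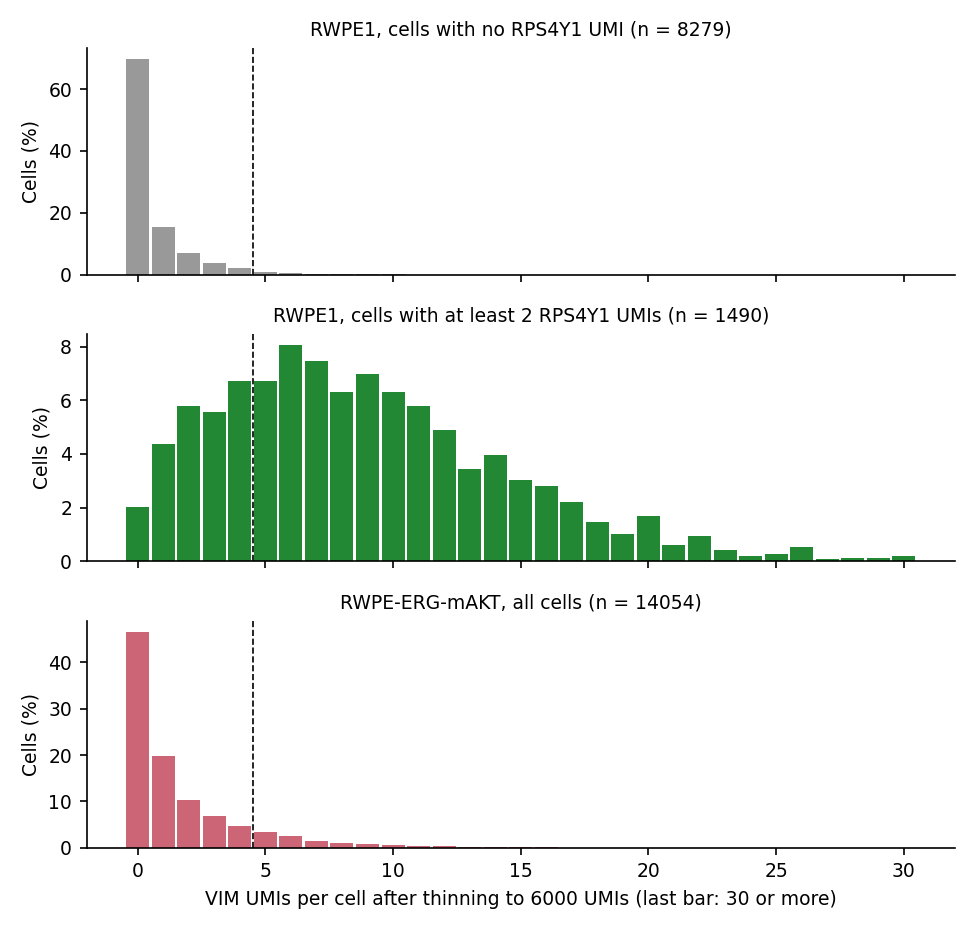
VIM UMIs per cell (horizontal axis) against the percentage of cells (vertical axis) after thinning every cell to 6000 UMIs, for RPS4Y1-negative and RPS4Y1-positive RWPE1 cells and for all RWPE-ERG-mAKT cells; the dashed line marks the limit of 5 UMIs. RPS4Y1-positive RWPE1 cells spread around a median of 8 UMIs, while the medians of the other groups are 0 and 1.

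Levels of all 3 marker genes split in the same way. RPS4Y1-positive RWPE1 cells held 1278 CPM of VIM, 318 of FN1 and 18.8 of CDH2. RPS4Y1-negative RWPE1 cells held 103, 9.45 and 1.30 CPM. All kept RWPE-ERG-mAKT cells held 270, 18.8 and 4.65 CPM, between these levels for each gene. The single cell richest in VIM held 103 UMIs of it for RWPE1 and 119 for the other line.

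Shares of members differed between the lines and within RWPE1. As measured, 15.95% of RWPE1 cells (15.2 to 16.7%) and 10.1% of RWPE-ERG-mAKT cells (9.65 to 10.7%) were members. At 6000 UMIs per cell the shares were 8.46% (7.92 to 9.02%) and 2.50% (2.25 to 2.77%), with 11 and 86 shallower cells left out. Within RWPE1, 1200 of 1493 RPS4Y1-positive cells (80.4%) were members and 358 of 8284 RPS4Y1-negative cells (4.32%). The share in RWPE-ERG-mAKT was thus lower than in RPS4Y1-positive RWPE1 cells and higher than in RPS4Y1-negative ones, and the order of the lines turned with the cells that were compared. After thinning to 6000 UMIs these 2 RWPE1 shares were 53.6% (51.0 to 56.1%) and 0.362% (0.245 to 0.517%), again on either side of RWPE-ERG-mAKT.

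The share also moved with depth, differently in each line. In RWPE-ERG-mAKT it went from 4.17% (3.18 to 5.35%) among cells of 6000 to 8000 UMIs to 21.3% (18.5 to 24.3%) among cells of 30000 to 40000, and was 19.8% (14.1 to 26.5%) above that. In RWPE1 it was 34.4% (29.8 to 39.1%) at 8000 to 10000 UMIs, 10.2% (8.72 to 11.8%) at 20000 to 25000 and 26.4% (22.0 to 31.1%) from 40000 up. RPS4Y1-positive cells made up 46.4% of RWPE1 cells at 8000 to 10000 UMIs and 6.99% at 20000 to 25000.

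**Figure D2:**
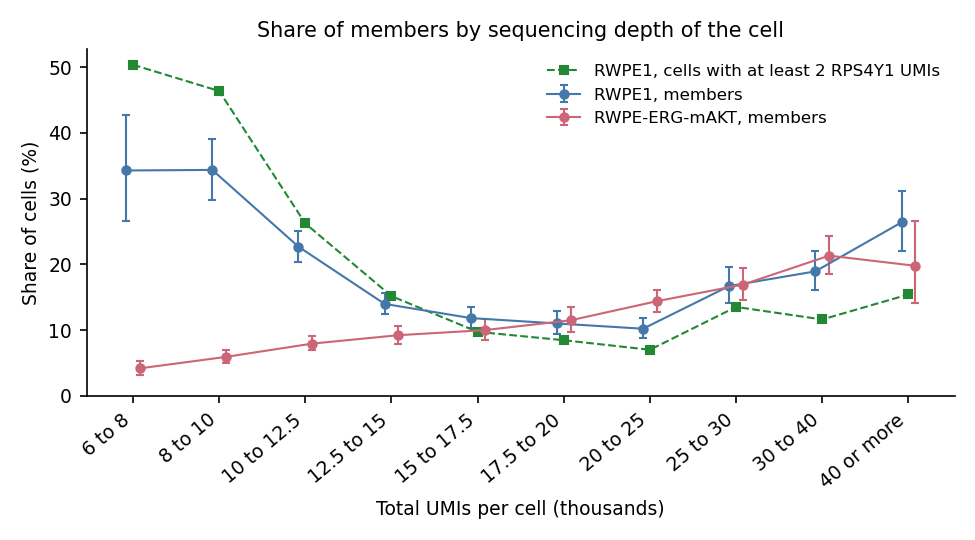
Share of cells (vertical axis, %) in bins of total UMIs per cell (horizontal axis), with exact binomial 95% intervals for members of RWPE1 and RWPE-ERG-mAKT; squares give the share of RPS4Y1-positive cells in RWPE1. The share of RWPE-ERG-mAKT members climbs from 4.17% to 21.3%, while that of RWPE1 falls from 34.4% to 10.2% alongside the squares before it climbs.

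The limit on VIM fell between cells of neighbouring counts, all of them required to hold CDH2 or FN1. In RWPE1, 59 cells with exactly 5 VIM UMIs were members, and 77 cells with exactly 4 were not; their FN1 levels were 84.6 and 79.2 CPM, and 8 and 7 of them were RPS4Y1-positive. In RWPE-ERG-mAKT these were 164 and 211 cells, with 75.2 and 73.0 CPM of FN1.

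FN1 and CDH2 were found more often where VIM was higher. FN1 had a UMI in 8.58% of RWPE1 cells with no VIM UMI (7.77 to 9.45%) and in 77.8% of those with 20 or more (74.8 to 80.6%), at similar median depths of 16694 and 15683 UMIs. In RWPE-ERG-mAKT these shares were 11.9% (10.9 to 12.9%) and 44.9% (40.8 to 49.1%), and 12.7% and 41.8% when both were weighted to the same depths. CDH2 was seen in 1.17% (0.878 to 1.54%) and 24.1% (21.2 to 27.2%) of these RWPE1 cells, and in 5.00% (4.37 to 5.68%) and 13.6% (10.95 to 16.7%) of those of RWPE-ERG-mAKT. The shares in cells with no VIM UMI are the background against which the others are read.

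Within RWPE1, FN1 was seen more often in RPS4Y1-positive than in RPS4Y1-negative cells of the same VIM class. Among RPS4Y1-negative cells, FN1 was seen in 8.42% of cells with no VIM UMI and in 22.7% (19.9 to 25.8%) with 5 to 9. It was seen in 28.2% (23.5 to 33.3%) of the 344 cells with 10 to 19, whose median depth was 22368 UMIs. With 20 or more it was seen in 50.8% (37.7 to 63.9%) of 61 cells, whose median depth was 33251 UMIs. Among RPS4Y1-positive cells it was seen in 68.4% (60.4 to 75.7%) with 5 to 9 VIM UMIs and 80.1% (77.1 to 82.9%) with 20 or more. Cells with both CDH2 and FN1 were 2.03 times (1.77 to 2.31) as many as chance pairing within depth bins gave in RWPE1, 0.892 times (0.767 to 1.03) within its RPS4Y1-positive cells and 1.41 times (0.998 to 1.93) within its RPS4Y1-negative cells. In RWPE-ERG-mAKT the figure was 1.58 times (1.40 to 1.77).

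Genes in members were set against comparison cells by a ratio pooled over bins of total UMIs, for 8508 genes without VIM, CDH2, FN1 and the genes of chromosome Y. A gene is called here when this ratio passes 1.5-fold. In RWPE1 members 807 genes (9.49%) were higher and 168 (1.97%) lower. In RWPE-ERG-mAKT members 455 (5.35%) were higher and 114 (1.34%) lower. In both libraries 209 genes (2.46%) were higher and 47 (0.552%) lower, so that 25.9% of the RWPE1 genes and 45.9% of the RWPE-ERG-mAKT genes among the higher ones were shared. The median log2 ratio over all genes was 0.00 and 0.02. Because the members were chosen by VIM, CDH2 and FN1 in these same cells, the ratios below describe them and carry no test.

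Fewer genes were called when the RWPE1 cells compared were of 1 kind. Within the RPS4Y1-negative cells of RWPE1, with 343 members and 4158 comparison cells in shared bins, 57 of 8281 genes (0.688%) were higher in members and 33 (0.399%) lower. Of these, 37 (0.447%) were higher and 13 (0.157%) lower in RWPE-ERG-mAKT members too. For a part of the named genes, the RWPE1 ratio is therefore given again for RPS4Y1-negative cells. Where it is not, as for TNC, MAP1B and PMEPA1, membership and kind of cell cannot be told apart in the RWPE1 ratio. The RPS4Y1-negative members also held less VIM than the RPS4Y1-positive ones, at 414 CPM against 1344. Only 10 RPS4Y1-positive cells were comparison cells, so within that kind 810 members were set against 222 cells of all other classes. Of the 293 such cells before binning, 236 held at least 5 VIM UMIs without CDH2 or FN1. There the log2 ratio was 1.07 (0.93 to 1.22) for SERPINE2, 0.92 (0.81 to 1.04) for PMEPA1, 0.01 (-0.15 to 0.18) for TNC and 0.24 (0.01 to 0.47) for SPARC.

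The difference also followed whole chromosomes. In RWPE1 the median log2 ratio of members to comparison cells was 0.53 over 174 genes of chromosome 22, 0.33 over 134 genes of chromosome 18, 0.27 over 310 genes of chromosome 15, 0.22 over 477 genes of chromosome 3 and 0.21 over 392 genes of chromosome 7. It was -0.23 over 348 genes of chromosome 10, on which VIM lies. Among RPS4Y1-negative cells the same medians were 0.05, 0.03, -0.03, -0.02, -0.04 and -0.06. In RWPE-ERG-mAKT they were 0.05, 0.04, 0.08, 0.07, -0.01 and 0.07. On chromosome 22, 69 of 174 genes were higher in RWPE1 members, and 7 in RWPE-ERG-mAKT members. Whether these chromosomes differ in copy number between the kinds of cells was not tested.

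**Figure D3:**
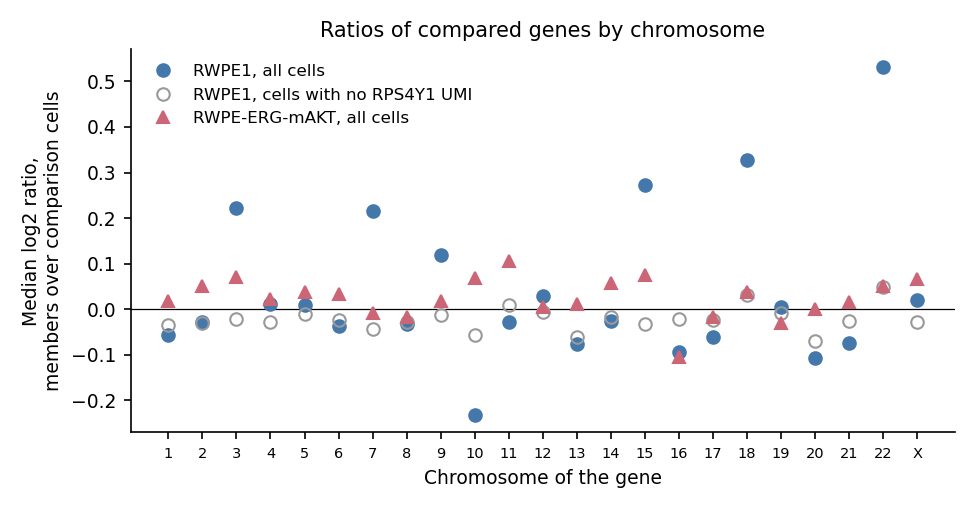
Median log2 ratio of members to comparison cells (vertical axis) over the compared genes of each chromosome (horizontal axis), for all RWPE1 cells, RPS4Y1-negative RWPE1 cells and RWPE-ERG-mAKT cells. In RWPE1, chromosomes 22, 18, 15, 3 and 7 stand above 0.2 and chromosome 10 at -0.23; RPS4Y1-negative cells stay between -0.07 and 0.05.

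Of the 28 further mesenchymal genes, 11 were high enough to compare. Of these 8 were higher in RWPE1 members, 8 in RWPE-ERG-mAKT members and 7 in both, and 0 of 11 were lower in either library. Over all genes compared, 9.49% were higher in RWPE1 members, 5.35% in RWPE-ERG-mAKT members and 2.46% in both. Only 1.97% and 1.34% were lower in these members, so 0 of 11 lower says little about the list. The list had a median log2 ratio of 1.53 for RWPE1 members, 1.90 for RWPE-ERG-mAKT members and 0.50 among RPS4Y1-negative RWPE1 cells, where 2 of 9 were called. Over all genes compared in those cells 0.688% were higher and 0.399% lower.

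SPARC, a matrix glycoprotein that binds collagen, stood at 51.4 CPM in RWPE1 members and 11.7 in comparison cells, and at 17.98 and 0.637 CPM in RWPE-ERG-mAKT. These levels gave log2 ratios of 2.20 (2.08 to 2.31) and 4.81 (4.38 to 5.25). A SPARC UMI was seen in 21.9% of RWPE-ERG-mAKT members and 0.910% of comparison cells. In RWPE1 cells with no RPS4Y1 UMI its ratio was 0.80 (0.55 to 1.04).

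TNC, the matrix protein tenascin-C, stood at 61.8 and 2.52 CPM in RWPE1 members and comparison cells, a log2 ratio of 4.61 (4.40 to 4.82). In RWPE-ERG-mAKT it stood at 113 and 21.7 CPM, a ratio of 2.36 (2.28 to 2.45). The basement membrane collagen COL4A1 had ratios of 1.58, 2.20 and 0.50 in RWPE1, RWPE-ERG-mAKT and RPS4Y1-negative RWPE1 cells. The short-chain collagen COL8A1 had ratios of 2.39 in RWPE1 and 3.15 in RWPE-ERG-mAKT. Among RPS4Y1-negative RWPE1 cells its ratio was 1.70 (1.62 to 1.79), with 166 CPM in members and 50.8 in comparison cells.

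Genes of the TGF-beta response and matrix signalling list were 6 higher in both libraries of 12 compared, and 0 of 12 were lower in either. Its medians were 0.86 in RWPE1, 0.83 in RWPE-ERG-mAKT and 0.52 among RPS4Y1-negative RWPE1 cells, where 4 of 12 were higher. Over all genes compared, 2.46% were higher in both libraries, and 0.688% were higher among RPS4Y1-negative cells. In RWPE1 and RWPE-ERG-mAKT members 1.97% and 1.34% of all genes were lower, so 0 of 12 lower says little about the list. PMEPA1, a feedback inhibitor of TGF-beta signalling, stood at 357 CPM in RWPE1 members against 104, and at 280 against 84.8 in RWPE-ERG-mAKT, with ratios of 1.84 (1.80 to 1.88) and 1.72 (1.68 to 1.77). TGFBI, a TGF-beta induced matrix protein, had ratios of 1.37 and 1.24. SERPINE2, a secreted protease inhibitor, had a ratio of 5.45 in RWPE1, with 202 CPM against 4.80, but 1.73 in RWPE-ERG-mAKT and 1.47 (1.14 to 1.80) among RPS4Y1-negative cells.

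Laminins and integrins attach epithelial cells to the matrix beneath them. Of 14 such genes, 6 were higher in RWPE1 members, 11 in RWPE-ERG-mAKT members and 5 in both, while 1 was lower in RWPE-ERG-mAKT. LAMA3, a laminin alpha chain, had ratios of 1.32 and 1.25, LAMB3 of 1.12 and 0.89, and the TGF-beta activating integrin ITGB6 of 1.91 and 1.72. Among RPS4Y1-negative RWPE1 cells the list had 0 of 14 genes called, and LAMA3 stood at 0.25 (0.12 to 0.37). Over all genes compared in those cells 0.688% were higher and 0.399% lower, so 0 of 14 is near that share.

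The EMT transcription factors gave 4 comparable genes of 10. All 4 were higher in RWPE1 members and 2 in RWPE-ERG-mAKT members. SNAI2 stood at 49.3 and 26.7 CPM in RWPE1 and 69.7 and 33.8 in RWPE-ERG-mAKT, with ratios of 0.90 (0.80 to 0.99) and 1.07 (0.98 to 1.16). TCF4 had ratios of 0.99 and 0.76. TWIST1 had 0.83 and -0.14, and TWIST2 had 0.65 and 0.55. ZEB1 was under the limit for comparison, at 5.53 CPM in RWPE1 members and 6.18 in RWPE-ERG-mAKT members. Within the RPS4Y1-negative cells of RWPE1 0 of the 4 were called, where 0.688% of all genes compared were higher and 0.399% lower.

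Most epithelial genes stayed within 1.5-fold, but a larger share of them was lower in members than over all genes. E-cadherin, CDH1, stood at 96.0 CPM in RWPE1 members and 101 in comparison cells, and at 97.3 and 106 CPM in RWPE-ERG-mAKT, with log2 ratios of -0.08 (-0.14 to -0.02) and -0.13 (-0.19 to -0.06). Of 25 genes of epithelial adhesion and polarity, 7 were lower in RWPE1 members, 6 in RWPE-ERG-mAKT members and 4 in both. None of the 25 were higher. Over all genes compared, 1.97% were lower in RWPE1 members, 1.34% in RWPE-ERG-mAKT members and 0.552% in both. The list medians were -0.26 and -0.13. The 4 were ELF3, an epithelial ETS factor, at -1.60 and -1.999, the claudin CLDN4 at -1.22 and -1.71, the tight junction gene OCLN at -1.01 and -0.79, and the polarity gene LLGL2 at -0.61 and -0.78. In RWPE1 cells with no RPS4Y1 UMI only CLDN4 of these stayed past 1.5-fold, at -0.79 (-1.11 to -0.47).

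Of 14 basal genes, 7 were higher in RWPE-ERG-mAKT members, 3 in RWPE1 members and 2 in both, and 1 was lower in each library. KRT14, a basal keratin, stood at 2668 CPM in RWPE1 members and 1455 in comparison cells, and at 2801 and 1332 in RWPE-ERG-mAKT, with ratios of 0.88 and 1.06. Among RPS4Y1-negative RWPE1 cells it turned to -0.66 (-0.70 to -0.63). KRT5 had ratios of -0.11 and 0.67, and TP63, the master regulator of basal epithelium, 0.05 and 0.72. KRT15, another basal keratin, was lower in RWPE-ERG-mAKT members, at 21.4 CPM against 68.9 (-1.78, -1.91 to -1.65), and had a ratio of -0.43 in RWPE1. COL17A1, the hemidesmosome collagen, had ratios of 0.62 and 0.93.

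The keratin KRT19, which marks simple and luminal epithelium, stood at 549 CPM in RWPE1 members and 994 in comparison cells, and at 255 and 816 in RWPE-ERG-mAKT, with ratios of -0.91 (-0.94 to -0.89) and -1.75 (-1.78 to -1.71). Within the RPS4Y1-negative cells of RWPE1 its ratio was -0.07. KRT18 had ratios of -0.45 and -0.59, KRT8 of -0.45 and -0.47, and KRT7 of 0.51 and 0.39. Of 6 luminal genes compared, 1 was lower in both libraries.

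All 3 comparable luminal progenitor and hillock genes were lower in both. The surface antigen PSCA had ratios of -1.49 and -1.41, and the water channel AQP3 of -1.35 and -1.19. In RWPE1 cells with no RPS4Y1 UMI these ratios were -1.03 for PSCA and -1.65 for AQP3. Each gene was seen in few cells: 1% of the RWPE1 comparison cells held 58.6% of their PSCA UMIs and 38.0% of their AQP3 UMIs. PSCA was seen in 6.29% of RWPE1 members and 8.26% of comparison cells, and AQP3 in 5.66% and 10.2%. In RWPE-ERG-mAKT these shares were 9.69% and 17.2% for PSCA and 9.97% and 10.7% for AQP3.

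**Figure D4:**
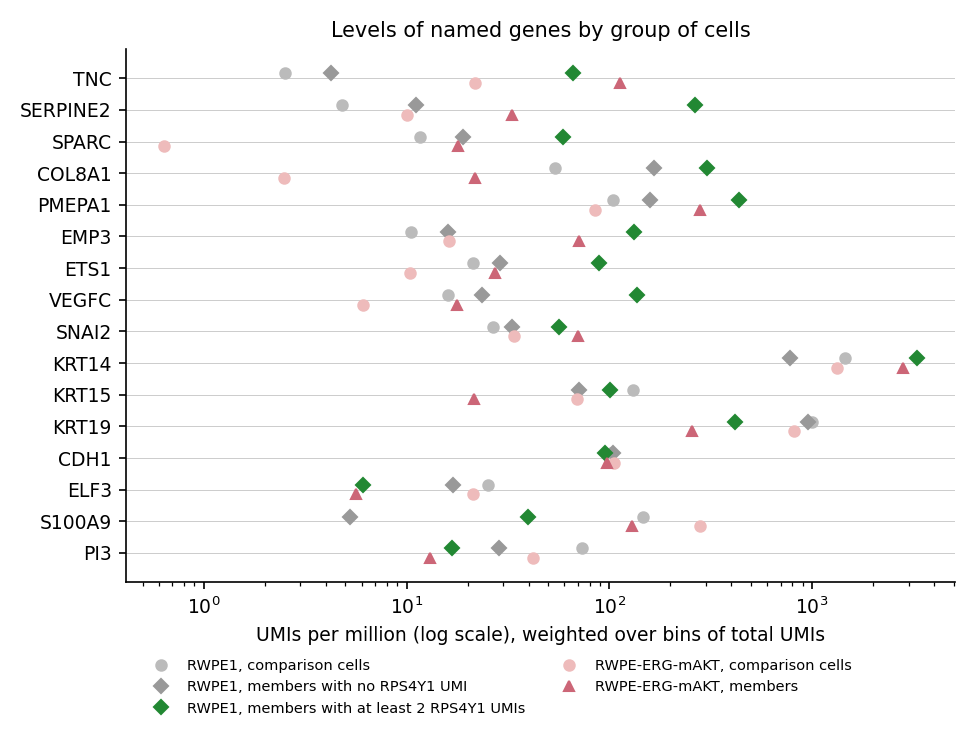
Levels of named genes in CPM (horizontal log axis), weighted over bins of total UMIs, in RWPE1 comparison cells, RPS4Y1-negative and RPS4Y1-positive RWPE1 members, and RWPE-ERG-mAKT comparison cells and members. RPS4Y1-negative RWPE1 members lie near the RWPE1 comparison cells for KRT19 (957 CPM), where RPS4Y1-positive members hold 415 CPM.

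Ranked over all genes by the smaller of both libraries' ratios, the 12 highest included COL5A2, MAP1B, AC010343.3, XYLT1, SYNPO, COL8A1, NAV1, TNC, DEC1, SPARC and EMP3. COL5A2, a fibrillar collagen, had ratios of 3.73 and 3.08, and XYLT1, which starts the sugar chains of proteoglycans, of 2.71 and 3.34. MAP1B, a microtubule-binding protein best known from neurons, had ratios of 4.98 and 2.84, and SYNPO, which binds actin, of 2.47 and 2.69. EMP3, an epithelial membrane protein family gene, stood at 108 and 10.5 CPM in RWPE1 and 71.1 and 16.1 in RWPE-ERG-mAKT. Among RPS4Y1-negative RWPE1 cells the ratio was -0.06 (-0.88 to 0.76) for COL5A2, 1.07 (0.70 to 1.44) for XYLT1, 0.45 for SYNPO and 0.81 (0.54 to 1.08) for EMP3.

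The 12 lowest were PI3, ELF3, PSCA, S100A8, GNGT1, CLDN4, AQP3, S100A9, PTGES, COBL, MUC1 and RAPGEFL1. PI3, the elastase inhibitor elafin, had ratios of -1.94 and -1.67, and -1.52 (-1.70 to -1.34) among RPS4Y1-negative RWPE1 cells. The 1% of comparison cells richest in PI3 carried 55.2% of its counts for RWPE1 and 52.4% for the other line. PI3 was detected in 14.7% of RWPE1 members against 23.7% of comparison cells. For RWPE-ERG-mAKT these shares were 11.4% and 15.0%. S100A8 and S100A9, the calprotectin subunits, had ratios of -3.03 and -2.24 in RWPE1 and -1.40 and -1.13 in RWPE-ERG-mAKT. These 2 rested on few cells: 1% of the RWPE1 comparison cells carried 95.04% of their S100A8 UMIs and 86.6% of their S100A9 UMIs, and an S100A8 UMI was seen in 4.09% of RWPE1 members and 4.20% of comparison cells. The actin nucleator COBL, by contrast, was seen in 23.3% of RWPE1 members and 48.9% of comparison cells, and in 18.4% and 29.9% in RWPE-ERG-mAKT. COBL had ratios of -1.12 and -1.13, and -0.06 among RPS4Y1-negative RWPE1 cells.

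**Figure D5:**
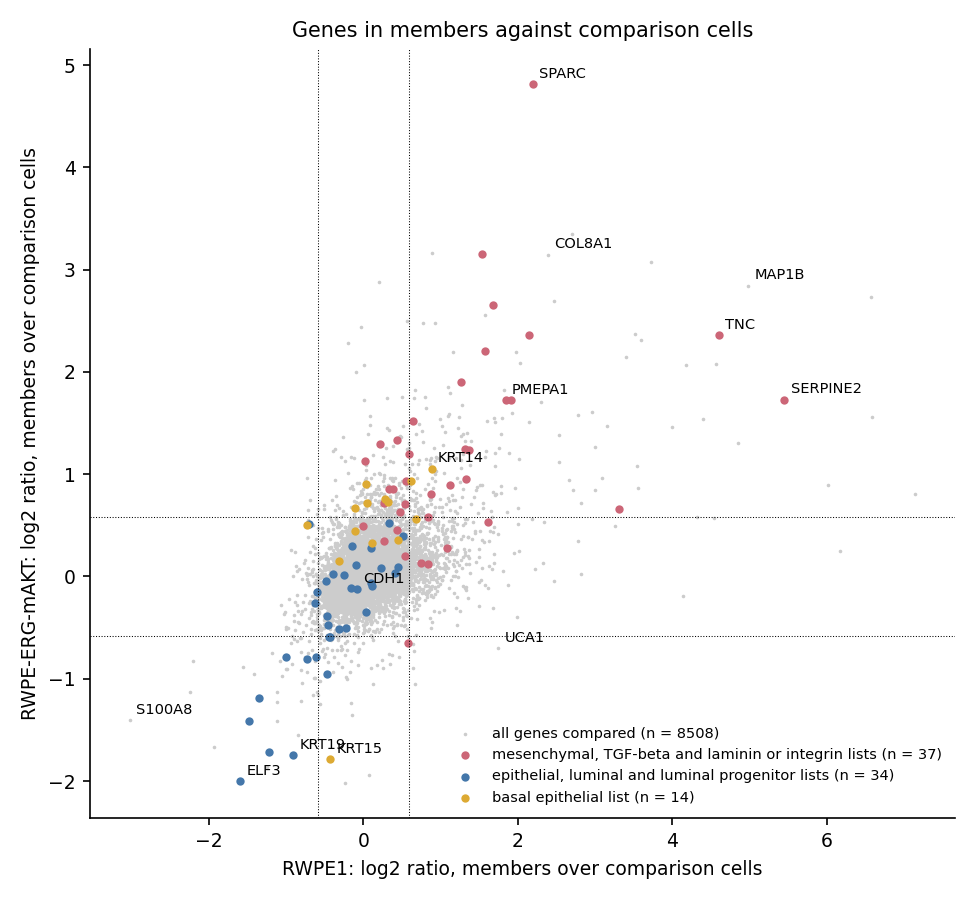
Log2 ratio of members to comparison cells in RWPE1 (horizontal axis) and RWPE-ERG-mAKT (vertical axis) for 8508 genes, with genes of the mesenchymal, TGF-beta, laminin and integrin lists, the epithelial and luminal lists and the basal list in colour; dotted lines mark 1.5-fold. Genes past both lines at the upper right number 209 and at the lower left 47.

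Across the 8508 genes, Pearson's r between the ratios of both libraries was 0.51 and Spearman's rho 0.42. Genes are not replicates, and both ratios share the rule that chose the cells.

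Cell cycle genes were mostly within 1.5-fold. Of 18 S phase genes 3 were higher in RWPE1 members and 0 of 18 in RWPE-ERG-mAKT members. Of 20 G2/M genes 0 were called in either library. Over all genes compared, 9.49% were higher and 1.97% lower in RWPE1 members, and 5.35% and 1.34% in RWPE-ERG-mAKT members. Of 9 interferon-stimulated genes 3 were higher in both libraries, and the list's medians were 0.54 and 0.58. IFI27 had ratios of 2.30 and 1.71, IFI6 of 1.04 and 1.01, and MX1 of 0.62 and 0.75. Among RPS4Y1-negative RWPE1 cells 4 of the 7 genes compared were higher and 0 of 7 lower, with a list median of 0.82, while IFI27 turned to -0.46 (-0.96 to 0.03). Over all genes compared in those cells 0.688% were higher and 0.399% lower. Of 20 actin cytoskeleton genes 7 were higher in RWPE1 members, 6 in RWPE-ERG-mAKT members and 3 in both. Among 10 mitochondrially encoded genes 0 were called, with medians of -0.15 and -0.32. Of 5 invasion proteases and inhibitors 1 was higher in both libraries: PLAU, the urokinase that activates plasmin, at 1.70 and 1.51. Of 13 hypoxia and glycolysis genes, 9 ATF4 targets and 2 long nuclear RNAs, 0 were called in the same direction in both. Over all genes compared 2.46% were higher and 0.552% lower in both, so 0 in lists this short says little about them.

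Growth factor, ERK and squamous genes differed by gene. AREG, an EGF receptor ligand, stood at 238 and 168 CPM in RWPE1 and 393 and 143 in RWPE-ERG-mAKT, with ratios of 0.52 and 1.48. PHLDA1, an ERK output gene, had 1.06 and 1.41, and IL1A 1.54 and 0.89. The cornified envelope gene SPRR1B had -2.21 and -0.82, and the stress keratin KRT16 -1.56 and -0.89. SPRR1B rested on few RWPE1 cells, with 77.9% of the UMIs of comparison cells in 1% of them and a UMI in 3.21% of members and 5.04% of comparison cells. For KRT16 these values were 35.1%, 28.7% and 33.7%. KRT6A, a keratin of activated epithelium, had 1.64 and 0.45, and turned to -0.72 (-0.83 to -0.60) among RPS4Y1-negative RWPE1 cells.

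Both transduced genes, ERG and AKT1, were measured in the members. In RWPE-ERG-mAKT, ERG stood at 21.8 CPM in members and 21.4 in comparison cells, a log2 ratio of 0.03 (-0.11 to 0.17). A UMI of ERG was seen in 29.8% of these members, at a median of 17699 UMIs, and in 21.7% of comparison cells, at 12233. RWPE1 members held 0.618 CPM of ERG and comparison cells 1.74. AKT1, the kinase downstream of PI3K, stood at 25.2 CPM in RWPE-ERG-mAKT members and 14.96 in comparison cells, a log2 ratio of 0.74 (0.60 to 0.88), past 1.5-fold. An AKT1 UMI was seen in 37.0% of these members and 19.7% of comparison cells, at the same median depths. RWPE1 members held 24.4 CPM of AKT1 and comparison cells 21.2, a ratio of 0.20 (0.07 to 0.33). The 3' counts cannot tell transgene from native transcripts of either gene. Of the study's ERG, VEGF and TLR4 pathway genes 7 could be compared and 2 were higher in both: ETS1, another ETS factor, at 1.78 and 1.39, and the lymphatic growth factor VEGFC at 2.77 and 1.58. ETS1 stood at 0.41 and VEGFC at 0.52 among RPS4Y1-negative RWPE1 cells.

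Between members and comparison cells, 0 of 9 fibroblast and stromal markers, 0 of 9 endothelial and immune markers, 0 of 8 microglia and choroid plexus markers and 0 of 6 neuroendocrine markers were high enough to compare. The fibroblast and stromal list summed to 17.8 CPM in RWPE1 members and 6.78 in comparison cells, and to 23.7 and 30.4 CPM in RWPE-ERG-mAKT. Most of these sums came from FAP, at 12.4 CPM in RWPE1 members and 4.99 in comparison cells, and from the matrix proteoglycan DCN, at 17.8 and 27.0 CPM in RWPE-ERG-mAKT. Between members of the lines, 2 of these 9 markers were high enough to compare, with DCN higher in RWPE-ERG-mAKT (7.26) and FAP lower (-3.15), as was 1 of the 9 endothelial and immune markers, CD68, which was not called (0.58). The collagen COL3A1 was at 0 CPM in members of both libraries, and COL1A1 at 2.76 CPM in RWPE1 members and 3.93 in RWPE-ERG-mAKT members. The members held basal keratins and E-cadherin.

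Members differed among themselves. In RWPE1, RPS4Y1-positive members held 1344 CPM of VIM (median 14166 UMIs per cell) and 386 CPM of FN1, and RPS4Y1-negative members 414 and 55.4 CPM (median 22306 UMIs). Within shared depth bins, positive members had 265 CPM of SERPINE2 against 13.6 in negative members, 66.1 against 4.44 of TNC, 3293 against 765 of KRT14, 512 against 70.7 of KRT6A and 415 against 967 of KRT19. RPS4Y1-negative members included 18.99% of cells from the deepest 5% of the library, against 5.08% for positive members.

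The level of VIM graded the mesenchymal, TGF-beta, integrin and laminin, and epithelial adhesion lists in both libraries, but not the basal list. Members with 5 to 9 VIM UMIs had a median log2 ratio over the mesenchymal list of 0.67 in RWPE1 and 1.55 in RWPE-ERG-mAKT, members with 10 to 19 of 1.48 and 1.98, and members with 20 or more of 1.84 and 2.35. SPARC went from 3.75 through 4.68 to 5.90 along these classes in RWPE-ERG-mAKT, PMEPA1 from 1.55 through 1.80 to 1.93, and KRT19 from -1.19 through -1.99 to -2.82. In RWPE1 the share of RPS4Y1-positive cells went from 32.8% through 77.2% to 94.0%, so that grade and kind of cell cannot be told apart there. In RWPE-ERG-mAKT it was 96.5%, 96.9% and 97.3%. The basal list had medians of -0.01, 0.13 and 0.10 along the classes in RWPE1 and 0.51, 0.71 and 0.71 in RWPE-ERG-mAKT. Median depth rose along the RWPE-ERG-mAKT classes, at 14898.5, 18231 and 22759.5 UMIs. Their ratios rested on 9, 8 and 6 bins, so the classes were not compared over the same depths.

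Members were also split by their partner gene. RWPE-ERG-mAKT members with FN1 alone (1065 cells), CDH2 alone (201) and both (168) had medians over the mesenchymal list of 1.92, 1.31 and 2.37, the last from 76 cells in shared depth bins. SERPINE2 had ratios of 1.83, 0.73 and 1.86 and PMEPA1 of 1.82, 0.96 and 1.79 in these subsets. Cells with at least 5 VIM UMIs but no CDH2 or FN1, which were no members, still had a list median of 1.32 in RWPE-ERG-mAKT (2696 cells), with SPARC at 3.87 and KRT19 at -1.89. Cells with CDH2 or FN1 but at most 1 VIM UMI had 0.32 (1109 cells), with SPARC at -0.01 and KRT19 at 0.12. In RWPE1 these 2 subsets had list medians of 0.47 (1129 cells, 20.9% RPS4Y1-positive) and 0.25 (597 cells, 0.670% RPS4Y1-positive).

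Members of RWPE-ERG-mAKT were also set against members of RWPE1, a comparison of the lines among cells that met the rule. Marker levels differed between these sets of members. VIM stood at 720 CPM in RWPE-ERG-mAKT members and 1043 in RWPE1 members, FN1 at 84.2 and 279, and CDH2 at 15.6 and 18.4. Line and marker level therefore cannot be told apart in the ratios below. Of 9647 genes, 525 (5.44%) were at least 2-fold higher and 1096 (11.4%) at least 2-fold lower in RWPE-ERG-mAKT members. With only RPS4Y1-positive RWPE1 members, which match RWPE-ERG-mAKT in that gene, 498 of 9671 genes (5.15%) were higher and 1108 (11.5%) lower. With 1 library a line, such a difference may belong to the library, and it carries no replicate check.

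ERG stood at 21.8 CPM in RWPE-ERG-mAKT members and 0.604 in RWPE1 members. The NF-kB targets were higher: 9 of 13 passed 2-fold, with a median log2 ratio of 2.66. BIRC3, an inhibitor of apoptosis, stood at 244 and 11.5 CPM (4.39, 4.23 to 4.55) and TNFAIP3, the NF-kB feedback inhibitor A20, at 45.9 and 3.53 CPM. The acute-phase gene SAA1 stood at 1439 and 127 CPM. Of 7 squamous genes 6 were higher, among them KRT6A at 2978 and 389 CPM and KRT6B at 142 and 1.55. Of 13 immediate early genes 8 were higher, with IER2 at 478 and 72.7 CPM. Against RPS4Y1-positive RWPE1 members alone the log2 ratios were 4.73 for BIRC3, 3.43 for TNFAIP3, 3.998 for SAA1, 2.49 for KRT6A and 2.52 for IER2.

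Matrix genes differed in both directions between members of the lines, where 11.4% of all genes were lower and 5.44% higher in RWPE-ERG-mAKT. Of 14 genes of TGF-beta response and matrix signalling 6 were lower and 2 higher, and of 15 mesenchymal genes 4 were lower and 2 higher. SERPINE2 stood at 33.2 CPM against 196 (-2.59, -2.69 to -2.49), LTBP2, which binds latent TGF-beta, at 3.47 against 39.8, and THBS1, the matrix protein thrombospondin-1, at 148 against 409. COL5A1 stood at 13.8 against 50.5 CPM. LOX, which crosslinks collagen, went the other way, at 48.1 against 6.38 CPM (2.91, 2.69 to 3.14), and so did LOXL2 at 15.4 against 3.93. ERK output genes were lower in 5 of 9 and higher in 0 of 9, with DUSP6, a feedback phosphatase, at 10.1 against 57.6 CPM. Of 10 ATF4 targets, genes of the amino acid stress response, 5 were lower and 0 higher.

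Comparison cells of the lines differed in most of these genes too. Between them the log2 ratio was 3.39 for BIRC3, 4.93 for TNFAIP3, 4.02 for KRT6A, 3.51 for IER2, 3.30 for LOX, -1.50 for DUSP6 and -1.22 for THBS1, each in the direction seen in members. SERPINE2 went the other way between comparison cells, at 1.16, with 5.64 CPM in RWPE1 and 13.2 in RWPE-ERG-mAKT. CDH11, a mesenchymal cadherin, was at 3.68 CPM in RWPE-ERG-mAKT members against 17.4 in RWPE1 members, a log2 ratio of -2.23, and it held 0.0394 CPM in RWPE1 comparison cells and 0.331 in RWPE-ERG-mAKT ones. RPS4Y1-positive cells made up 0.196% of RWPE1 comparison cells and 96.3% of RWPE-ERG-mAKT ones, against 75.5% and 96.8% of members. Between comparison cells, line and kind of cell therefore cannot be told apart. Whether a difference was larger in members than in comparison cells was not tested.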

How the data were processed

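Chromium 3' libraries were sequenced on a NovaSeq instrument and aligned to hg38 in Cell Ranger 7.1.0. The authors deposited raw UMI counts per gene and barcode, without normalization. The library totals were 217340524 UMIs over 12504 barcodes (RWPE1) and 237490385 over 17355 (RWPE-ERG-mAKT). The members and the 26 gene lists were chosen with earlier results of these data known. Cells had over 2500 genes and under 7.5% mitochondrial UMIs. Gene ratios were Mantel-Haenszel ratios over 11 bins of total UMIs with at least 20 cells of each group, with Greenland-Robins 95% intervals, for genes with at least 100 UMIs over both groups and 10 CPM in 1 group in each library. VIM, CDH2, FN1 and genes of chromosome Y were left out of counts. CPM are weighted over the same bins where set beside a ratio. Shares carry exact (Clopper-Pearson) binomial intervals, and CPM sums exact Poisson ones. A count of 0 allows 3 counts. Thinning was without replacement.

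Named genes were VIM, CDH2, FN1, ERG, up to 4 genes a list and 12 each way by the smaller of both libraries' ratios, and between lines list genes past 2-fold and 8 each way with at least 50 CPM. RPS4Y1, the chromosome medians, KRT5, TP63, CDH1 and other list genes beyond 4 a list were named after their values were seen. Some genes this rule selects are not reported here. Gene positions came from GENCODE release 29, which holds 34616 of 36601 gene identifiers. The ratio was tested on simulated data. All steps were run in Python 3.11.15, with pandas 2.3.3, numpy 2.4.6, scipy 1.17.1 and, for figures, matplotlib 3.10.9.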

Additional observations from a re-analysis of the deposited data

Results flagged for a closer look

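Of the 8508 genes, 10 passed 1.5-fold in opposite directions in the 2 libraries, members against comparison cells, and the difference between libraries was not tested. The log2 ratios were 1.746 in RWPE1 and -0.701 in RWPE-ERG-mAKT for UCA1, a long non-coding RNA. Desmosomal PKP2 had 0.660 and -0.725, the envelope gene SCEL 0.674 and -1.051, the protease PRSS21 0.645 and -0.895, and LIPE-AS1 0.646 and -0.663. The other 5 were lower in RWPE1 members and higher in RWPE-ERG-mAKT members: BCL11B at -0.733 and 0.964, LYPD6B at -0.694 and 0.743, DAPK2 at -0.713 and 0.647, the matrix protein NPNT at -0.586 and 0.661, and the podosome adaptor SH3PXD2A at -0.606 and 0.615. Among RPS4Y1-negative RWPE1 cells the ratios were 0.65 for UCA1, 0.0055 for PKP2, -0.31 for SCEL, -0.11 for PRSS21, 0.20 for LIPE-AS1, -0.65 for BCL11B, -0.37 for LYPD6B, -0.75 for DAPK2, 0.25 for NPNT and -0.52 for SH3PXD2A. SCEL, PRSS21 and NPNT thus had the sign of RWPE-ERG-mAKT there. Whether reads of LIPE-AS1 come from its antisense partner was not tested.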

How the results depend on the processing

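No paired analysis was possible because each line was 1 library. The share of members in RWPE1 was 12.7% with VIM of at least 10 UMIs, 2.07% with both CDH2 and FN1 required, 14.7% with no mitochondrial limit, 4.32% in RPS4Y1-negative cells and 80.4% in RPS4Y1-positive cells. In RWPE-ERG-mAKT it was 5.73% with 10 VIM UMIs, 10.9% with VIM at or above its median level per 10000 UMIs, 1.19% with both genes, 8.73% from 200 genes up and 9.51% without the deepest 5% of cells. Thinned shares were 5.63% and 1.17% at 4000 UMIs and 10.1% and 5.73% at 10000. RWPE-ERG-mAKT minus RWPE1 (-5.81 percentage points) was -6.92 with 10 VIM UMIs, -4.75 with the VIM median, -0.879 with both genes, -4.66 with no mitochondrial limit, -4.45 and -4.40 at 4000 and 10000 UMIs, -70.2 against RPS4Y1-positive and 5.82 against RPS4Y1-negative RWPE1 cells, where it turned. With 10 VIM UMIs, genes lower numbered 297, 190 and 77 in RWPE1, RWPE-ERG-mAKT and both. With both genes required, genes higher numbered 2010, 1009 and 538 and lower 1114, 358 and 149, from few cells. With at least 20 UMIs and no CPM minimum, genes higher numbered 2951, 1973 and 922 and lower 1187, 1232 and 387. Totals without mitochondrial and ribosomal protein genes gave 190 lower in RWPE-ERG-mAKT. Among RPS4Y1-negative RWPE1 cells 57 were higher and 33 lower, and 37 and 13 in both libraries. There the RWPE1 log2 ratios changed sign for KRT6A (-0.72), KRT14 (-0.66), IFI27 (-0.46), IL1A (-0.10), COL5A2 (-0.064), VEGFA (-0.024), TUBA1A (-0.0054) and CDC45 (-0.00060). For COL5A2, VEGFA, TUBA1A and CDC45 this left almost no difference, and the intervals given above for COL5A2 and IFI27 include no difference. The cause of the sign changes was not tested. The other 94 values of whole comparisons stayed within their limits. These were 1.5 times for counts of genes, the counting interval for shares and 1 percentage point for the difference of shares. For single genes the limit was the counting interval, and for list medians a fixed log2 distance. Of these values 3281 stayed within the limit, 839 moved past it and 8 called ones, those above, changed sign. Ratios centred on each chromosome's median gave 203 genes higher and 48 lower in both libraries. With 1 library a line, differences between cultures cannot be told apart from those between lines, and shallow cells with few VIM UMIs cannot be told from cells without it.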
